A study of Mus musculus with 6 samples.

Results

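The secreted WNT antagonists are proteins that leave the cell and dampen WNT signaling in the space between cells. The set consisted of 10 genes chosen by name from 3 families, namely *Dkk1*, *Dkk2*, *Dkk3* and *Dkk4* (Dickkopf), *Sfrp1*, *Sfrp2*, *Sfrp4*, *Sfrp5* and *Frzb* (secreted frizzled-related proteins) and *Wif1* (WNT inhibitory factor). They were looked up among the 56748 gene identifiers of the count table. A gene was treated as measured when at least 3 of the 6 samples had 10 or more counts, which held for 9 of the 10 genes, all but *Dkk4*.

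WNT ligands bind a frizzled receptor together with LRP5 or LRP6, which stabilizes CTNNB1 and activates target genes through TCF/LEF factors. DKK proteins act on the co-receptors: DKK1 and DKK2 bind LRP5 and LRP6, helped by the transmembrane proteins KREMEN1 and KREMEN2. SFRP proteins, including the *Frzb* product, carry a cysteine-rich domain like that of the frizzled receptors and bind the ligands themselves, as WIF1 does with a domain of its own. Several of the genes are also activated by WNT signaling in other tissues and then act as negative feedback.

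The samples came from wildtype NMRI embryos. Ureters were dissected at E12.5 and cultured for 18 h, either with 15 mM LiCl, a salt that inhibits GSK3B and thereby activates the pathway inside the cell, or with water as control. RNA-Seq of 3 samples per group gave between 28473436 and 31266945 counts per sample. The labels do not say how many ureters a sample held or whether replicates came from separate litters, so the p-values measure the spread between these samples.

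With LiCl, 4 of the antagonist genes fell by a similar share. *Dkk1* fell to 57.8% of its control level, *Dkk2* to 57.9%, *Frzb* to 59.5% and *Sfrp2* to 61.0%. *Dkk3* fell to 87.6%. The calls of *Frzb* and *Dkk3* did not hold in every alternative fit, as given with each gene. *Sfrp1* and *Wif1* had changes that did not pass the test, at 90.3% and 89.0% of the control, and *Sfrp4* and *Sfrp5* were near the lower end of the tested range. None of the 9 tested genes was higher at an adjusted p under 0.05.

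Calls were made at 2 thresholds after edgeR's quasi-likelihood test, with Benjamini-Hochberg adjustment over 18188 tested genes. At an adjusted p under 0.05, 5 antagonists were lower and 0 higher, where 22.4% of all tested genes were lower and 21.1% higher. When a log2 fold change below -1 or above 1 was also required, as in the methods of the study, 0 antagonists were called in either direction, where 4.59% of all tested genes were called lower and 2.74% higher. DESeq2 also called 0 at these thresholds. With edgeR, 5 of the 9 tested antagonists had an unadjusted p under 0.05, as did 9309 of all 18188 tested genes. The median log2 fold change of the 9 tested antagonists was -0.29, against -0.01 for all tested genes. In 5 antagonists, every LiCl sample was below every control sample, and 27.8% of all tested genes had this order.

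**Figure D1:**
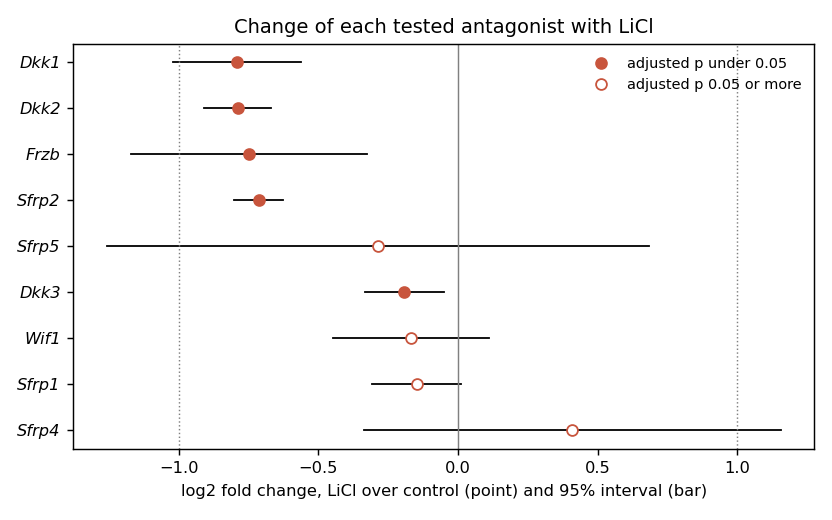
Log2 fold change of each tested antagonist, LiCl over control (3 samples each), with the point as the estimate of edgeR and the bar as its 95% interval. Filled points passed an adjusted p of 0.05, dotted lines mark the fold change thresholds of -1 and 1, and the points of Dkk1, Dkk2, Frzb and Sfrp2 lie between -0.79 and -0.71.

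The upstream sequences of the 2 antagonists with the smallest standard errors, *Dkk2* and *Sfrp2*, are shown because both fell by a similar share. A short stretch of *Dkk1* is shown because it holds the matches described below. The upstream sequence of *Sfrp5*, whose change did not pass the test, was available but is not shown. The choice therefore allows no comparison of changed with unchanged genes. The printed sequences are from RefSeq on the older assembly GRCm38.p6, which was not the assembly of the counts. Windows from 250 bases before to 50 bases after the start site were found for 6 of the 10 genes. Capitals mark CTTTG on either strand, the core of the sequence that TCF/LEF factors bind. The *Dkk2* stretch is chr3:132085042-132085291 and the *Sfrp2* stretch chr3:83766071-83766320, both on the plus strand and ending at the base before the start site. The *Dkk1* stretch is chr19:30549588-30549613 on the minus strand.
Dkk2: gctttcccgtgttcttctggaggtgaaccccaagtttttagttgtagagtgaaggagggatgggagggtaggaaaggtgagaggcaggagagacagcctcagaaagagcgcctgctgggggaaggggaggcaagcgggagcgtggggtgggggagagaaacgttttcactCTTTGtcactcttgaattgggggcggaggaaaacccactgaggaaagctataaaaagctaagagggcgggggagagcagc
Sfrp2: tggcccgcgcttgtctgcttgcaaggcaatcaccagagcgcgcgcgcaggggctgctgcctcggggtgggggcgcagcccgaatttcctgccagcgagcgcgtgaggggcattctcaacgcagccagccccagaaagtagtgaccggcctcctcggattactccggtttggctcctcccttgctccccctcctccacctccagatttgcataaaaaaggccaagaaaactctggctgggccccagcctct
Dkk1: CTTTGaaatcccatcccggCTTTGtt

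The core was also searched in a longer form of 7 letters, in 4 spellings on either strand, which were CTTTGAA as well as CTTTGAT, further CTTTGTA and finally CTTTGTT. The *Dkk1* window held 2 matches to the longer form, CTTTGAA from -117 to -111 and CTTTGTT from -98 to -92 relative to the RefSeq start site. GENCODE places the start of *Dkk1* at another base, so these distances hold for RefSeq only. Both matches stand in the stretch printed. The windows of *Dkk2*, *Sfrp2*, *Sfrp5*, *Frzb* and *Wif1* held 0. Of all 32851 windows of the same length, 16.9% held at least 1 match and 1.94% held 2 or more. The 5-letter core was present 4 times in the window of *Dkk1*, 1 time each in those of *Dkk2*, *Frzb* and *Wif1*, and 0 times in those of *Sfrp2* and *Sfrp5*, and 53.9% of all windows held it.

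*Dkk1* (ENSMUSG00000024868) encodes the LRP5 and LRP6 inhibitor for which the family is best known. Values are given as CPM, counts relative to the TMM-normalized library size, a scale on which samples but not genes can be compared. *Dkk1* had 19.3, 20.9 and 20.04 CPM in control replicates 1 to 3 and 9.91, 12.1 and 12.9 CPM in the LiCl samples. Every LiCl sample was below every control, and the LiCl samples spread more widely. The log2 fold change was -0.79 (standard error 0.10, 95% interval -1.02 to -0.56, edgeR adjusted p = 0.00029), so the interval included the fold change threshold of -1. Of all tested genes, 8.09% had a lower log2 fold change.

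*Dkk2* (ENSMUSG00000028031), whose product can also inhibit LRP5 and LRP6, had 100.2, 95.4 and 92.3 CPM in the controls and 53.1, 56.2 and 57.4 CPM with LiCl. No control was near any LiCl sample. Its log2 fold change was -0.79 (standard error 0.05, edgeR adjusted p = 6.7e-06) with a 95% interval of -0.91 to -0.67, which did not reach -1.

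*Dkk3* (ENSMUSG00000030772) is the divergent member of the family and is not known as a strong inhibitor of LRP5 or LRP6. It had 133, 118.1 and 118.2 CPM in the controls and 112.8, 101.5 and 109 CPM with LiCl. The highest LiCl sample was just under the lowest control. The log2 fold change was -0.19 (95% interval -0.33 to -0.05, edgeR adjusted p = 0.034). This call was lost in 4 of the 6 fits that left out a single sample: without control replicate 1 (adjusted p = 0.105, log2 fold change -0.13), control replicate 3 (0.0506, -0.21), LiCl replicate 2 (0.112, -0.15) or LiCl replicate 3 (0.0819, -0.19).

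*Dkk4* (ENSMUSG00000031535), a WNT-induced inhibitor in other tissues, was not measured. It had 1 count in control replicate 1, 2 counts in LiCl replicate 1 and 0 in the other 4 samples. At this depth, 0 counts allow up to 3 counts, or between 0.097 and 0.107 CPM per sample, by counting error alone. A difference between the groups was therefore not detectable.

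*Sfrp2* (ENSMUSG00000027996), which encodes a WNT-binding antagonist, had by far the most counts of the set, between 7374 and 13687 per sample. It had 434.8, 440.9 and 432.7 CPM in the controls and 266.6, 264.0 and 267.1 CPM with LiCl. Within each group the samples differed by a few CPM, while the distance between the groups was many times larger. The log2 fold change was -0.71 (standard error 0.04, 95% interval -0.80 to -0.63, edgeR adjusted p = 2e-06). An antisense gene, *Gm26771*, overlapped *Sfrp2* over 464 bases in the GENCODE annotation of the older assembly, and had 23 to 42 counts. The study's methods name a stranded library, but the strand setting of the counting was not stated. Whether reads in the shared bases were assigned by strand is therefore not known.

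*Sfrp1* (ENSMUSG00000031548), a close relative of *Sfrp2*, had 144.9, 149.6 and 166.1 CPM in the controls and 126.8, 142.6 and 146.6 CPM with LiCl. The groups overlapped. The log2 fold change was -0.15 with a 95% interval of -0.31 to 0.01 (edgeR adjusted p = 0.12), so a loss of about the size seen in *Sfrp2* lay outside the interval, whereas a small one did not.

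*Frzb* (ENSMUSG00000027004), also known as *Sfrp3*, had 5.60, 8.34 and 7.54 CPM in the controls and 3.41, 5.01 and 4.40 CPM with LiCl. The groups were separate, but control replicate 1 and LiCl replicate 2 were close. The log2 fold change was -0.75 (standard error 0.19, 95% interval -1.17 to -0.33, edgeR adjusted p = 0.01), with an interval wide enough to include -1. This call was lost without LiCl replicates 1 and 3 (log2 fold change -0.51, edgeR adjusted p = 0.172) and with limma on unfiltered log2(FPKM + 1) values (-0.45, limma adjusted p = 0.0748).

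*Sfrp4* (ENSMUSG00000021319) and *Sfrp5* (ENSMUSG00000018822) encode further WNT-binding antagonists. Raw counts of *Sfrp4* were 22, 13 and 13 in controls and 24, 16 and 22 in LiCl samples. Those of *Sfrp5* were 18, 19 and 14 in controls and 6, 14 and 20 in LiCl samples. In both genes the groups overlapped. The 95% intervals of the log2 fold change were -0.34 to 1.16 for *Sfrp4* and -1.26 to 0.69 for *Sfrp5*, so at this depth neither a doubling of *Sfrp4* nor a loss of *Sfrp5* as large as that of *Frzb* lay outside the interval.

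*Wif1* (ENSMUSG00000020218) had 10.3, 9.12 and 8.81 CPM in the controls and 9.36, 8.56 and 7.17 CPM with LiCl. The groups overlapped, with LiCl replicate 1 above control replicates 2 and 3. The log2 fold change was -0.17 with a 95% interval of -0.45 to 0.11 (edgeR adjusted p = 0.302).

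**Figure D2:**
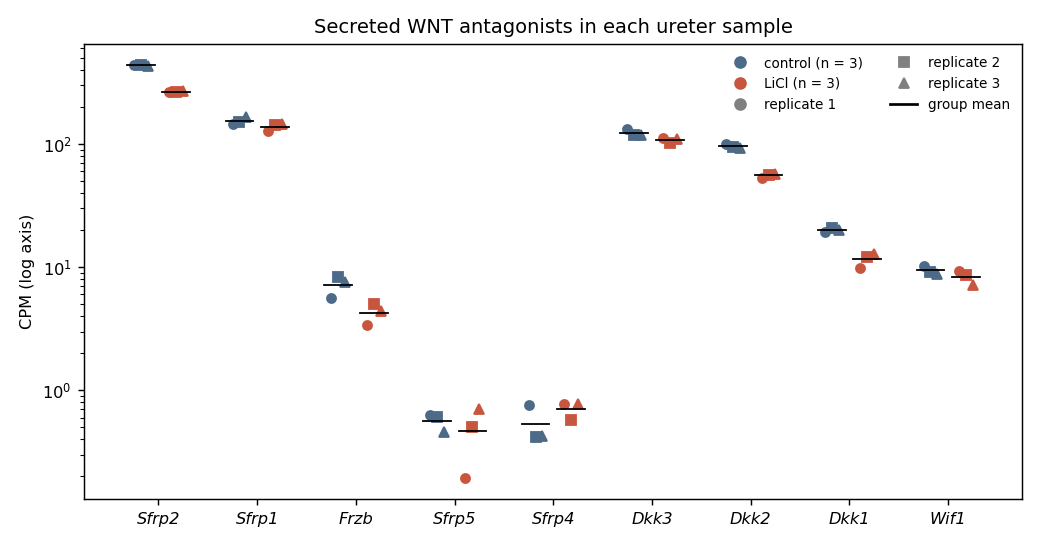
CPM (log axis) of the 9 measured antagonists in each of the 6 samples, control in blue and LiCl in red, with a marker shape per replicate number and a black line at the group mean. The groups are separate for Sfrp2, Frzb, Dkk1, Dkk2 and, narrowly, Dkk3, and overlap for Sfrp1, Sfrp4, Sfrp5 and Wif1.

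To compare members of a family with each other, their ratio was formed within each sample from FPKM, the deposited values that also take account of gene length. Of the 6 pairs within a family that had more than 100 counts on average in both genes, 4 had ratios that did not overlap between the groups. The pairs share genes and restate the changes of the single genes. How often ratios of other gene pairs are separate in this way was not determined. The log2 ratio of *Sfrp1* over *Sfrp2* was -2.53 ± 0.11 (SD, n = 3) in the controls and -1.96 ± 0.11 (SD, n = 3) with LiCl, a difference of 0.57. The ratio of *Sfrp1* over *Frzb* differed by 0.59. In the DKK family, the log2 ratio of *Dkk2* over *Dkk3* was -0.50 ± 0.05 in the controls and -1.096 ± 0.12 with LiCl, and that of *Dkk1* over *Dkk3* was -2.15 ± 0.15 and -2.75 ± 0.25 (each SD, n = 3). The other 2 ratios, *Dkk1* over *Dkk2* and *Sfrp2* over *Frzb*, differed by -0.01 and 0.03 with overlapping groups. A two-sided exact permutation test of 3 against 3 samples cannot give a p below 0.1, which was the value for each of the 4 separate pairs (0.15 after Benjamini-Hochberg adjustment over the 6 pairs) and 0.8 for each of the others.

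**Figure D3:**
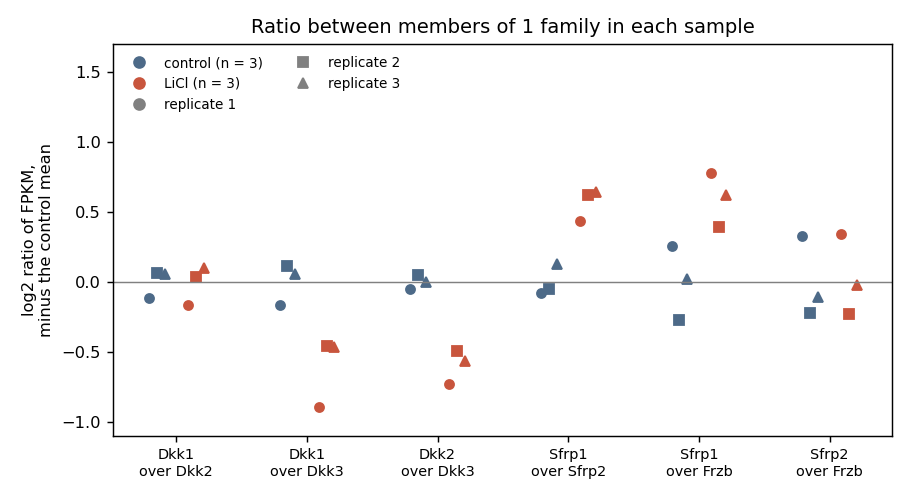
Log2 ratio of FPKM between members of the same family in each sample, minus the mean of the 3 controls of that pair. Control samples are blue and LiCl samples red. LiCl samples lie below the controls for Dkk1 and Dkk2 over Dkk3, above them for Sfrp1 over Sfrp2 and over Frzb, and among them for the other 2 pairs.

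FPKM also allow the levels of the genes to be compared with each other. In the controls the order was *Sfrp2* with 200.4 ± 2.9 FPKM, *Dkk3* with 36.2 ± 2.29, *Sfrp1* with 34.7 ± 2.61, *Dkk2* with 25.6 ± 0.94, *Dkk1* with 8.19 ± 0.36, *Wif1* with 3.83 ± 0.3, *Frzb* with 2.19 ± 0.44, *Sfrp5* with 0.29 ± 0.05 and *Sfrp4* with 0.13 ± 0.05 (each SD, n = 3). *Dkk3* and *Sfrp1* overlapped, and the samples of every other pair of neighbours were separate. By mean control FPKM, *Sfrp2* had rank 93 among all identifiers. The order was the same with LiCl, where *Sfrp2* had 123.6 ± 1.03 FPKM, *Dkk3* 32.1 ± 1.76, *Sfrp1* 31.7 ± 2.42, *Dkk2* 15.0 ± 0.61 and *Dkk1* 4.79 ± 0.64 (each SD, n = 3). With LiCl, *Sfrp5* and *Sfrp4* overlapped as well as *Dkk3* and *Sfrp1*.

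The summed FPKM of the 10 genes were 310.5, 313.6 and 310.7 in the controls and 210.2, 210.8 and 216.4 with LiCl. The mean with LiCl was 68.2% of the control mean. *Sfrp2* made up 64.3% ± 0.58 (SD, n = 3) of the sum in the controls and 58.2% ± 0.72 (SD, n = 3) with LiCl. Without *Sfrp2*, the sum was 111.2 ± 1.2 FPKM in the controls and 88.9 ± 2.85 with LiCl (each SD, n = 3), or 79.9% of the control mean. The share of *Dkk3* in the sum was 11.6% in the controls and 15.1% with LiCl, and that of *Sfrp1* was 11.1% and 14.9%, while the level of neither gene was higher.

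**Figure D4:**
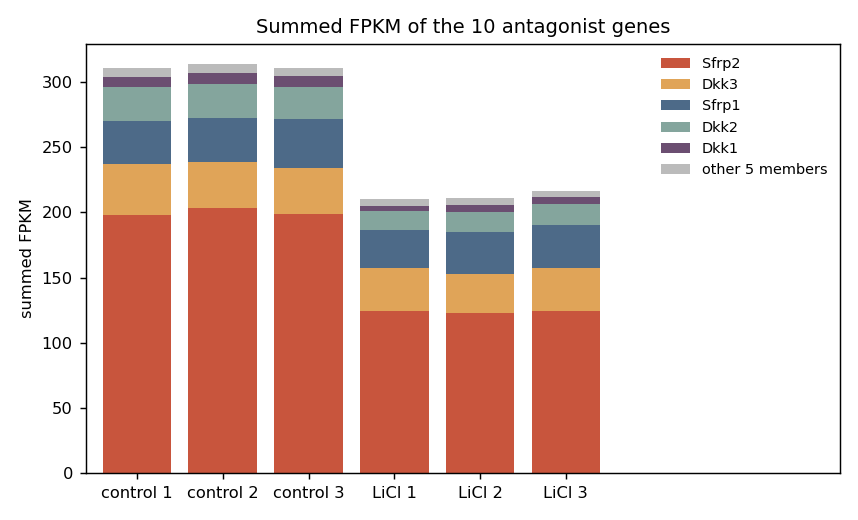
Summed FPKM of the 10 antagonist genes in each sample, stacked by gene, with the 5 genes of lowest level drawn together in grey. The controls reach from 310.5 to 313.6 FPKM and the LiCl samples from 210.2 to 216.4 FPKM, and the Sfrp2 part is the largest in every bar.

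Of the 4 genes for membrane proteins that DKK proteins bind, 1 rose and 3 did not pass the test. The co-receptor genes *Lrp5* and *Lrp6* had log2 fold changes of 0.04 (95% interval -0.09 to 0.17) and -0.07 (95% interval -0.32 to 0.19). *Kremen1*, which binds DKK proteins, had 75.3 ± 4.17 CPM in the controls and 69.3 ± 2.8 CPM with LiCl (each SD, n = 3), a change that did not pass the test (edgeR adjusted p = 0.122). *Kremen2*, its relative, rose from 2.54 ± 0.35 CPM to 8.61 ± 0.45 CPM (each SD, n = 3), a log2 fold change of 1.76 (edgeR adjusted p = 1.6e-05). In FPKM, which take account of gene length, *Kremen1* had 9.65 ± 0.49 in the controls and 8.99 ± 0.38 with LiCl. *Kremen2* had 1.19 ± 0.16 FPKM in the controls and 4.06 ± 0.22 FPKM with LiCl (each SD, n = 3). Of the 10 frizzled genes, all tested, 2 were higher and 4 lower at an adjusted p under 0.05, and 0 passed the fold change threshold.

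Among 7 lists of other pathway genes with 63 genes in all, 54 were tested, of which 21 were higher and 15 lower at an adjusted p under 0.05. Of all tested genes, 21.1% were higher and 22.4% lower at this threshold, the shares to set beside the counts of each list. The WNT ligands went both ways, with 4 of 13 tested genes higher and 5 lower. *Wnt6* and *Wnt9a* were called higher at log2 fold changes of 1.702 and 1.99, and *Wnt2* and *Wnt16* lower at -1.66 and -1.40. Of the R-spondins, which enhance WNT signaling, and their LGR receptors, 2 of 6 tested genes were higher and 3 lower, with *Rspo2* called lower at -1.23. Of the 6 co-receptor genes, 2 were higher and 0 lower.

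In the list of other extracellular inhibitors, 7 genes were tested. Of these, 3 were higher and only *Dkkl1* was lower at an adjusted p under 0.05. *Notum*, which encodes a secreted enzyme that removes the lipid from WNT ligands, had 21.8, 22.9 and 18.1 CPM in the controls and 98.5, 71.7 and 85.7 CPM with LiCl, a log2 fold change of 2.03 (edgeR adjusted p = 3.6e-06). *Dkkl1*, which encodes a protein related to DKK3, was called lower, from 2.00 ± 0.11 to 0.72 ± 0.08 CPM (each SD, n = 3). Of 10 genes listed as targets of the pathway, 7 were higher and 2 lower. *Axin2*, the common readout, had 71.8 ± 2.68 CPM in the controls and 136.0 ± 2.03 CPM with LiCl (each SD, n = 3). Its log2 fold change of 0.92 and that of *Dkk1*, a target in other tissues, had opposite signs, and both passed an adjusted p of 0.05.

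**Figure D5:**
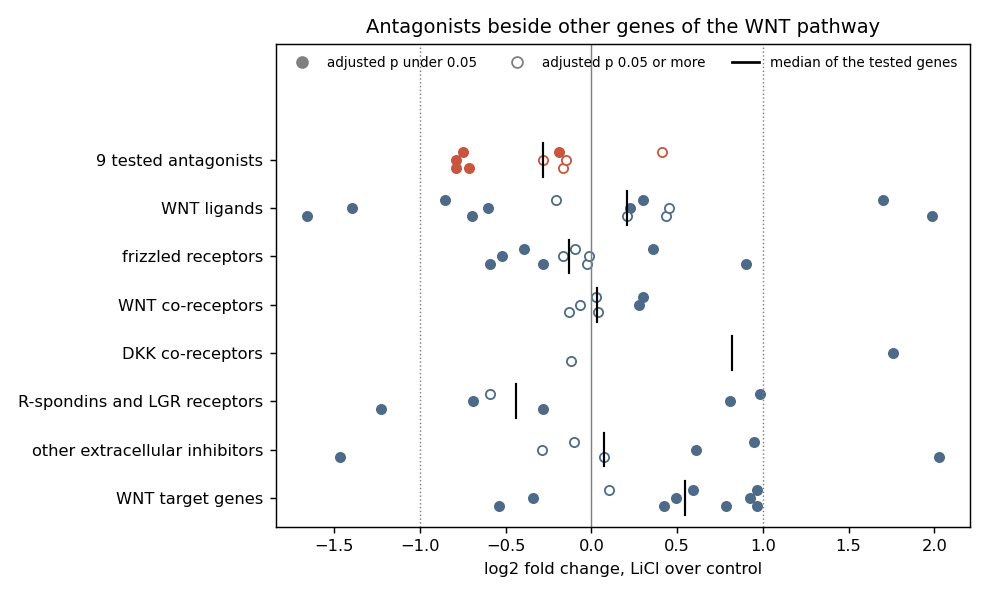
Log2 fold change, LiCl over control, of the tested antagonists (red) and of the tested genes in 7 lists of other WNT pathway genes (blue), 1 point per gene. Filled points passed an adjusted p of 0.05, black lines mark list medians, and dotted lines mark -1 and 1. The antagonist median is -0.29 and the target gene median 0.54.

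Markers of the tissue and of other cells were read beside these results. All 6 epithelial and all 8 mesenchymal markers of the ureter were measured. The summed CPM of the mesenchymal markers was 1975 to 2099 in the controls and 1968 to 2022 with LiCl. These ranges overlapped, but opposite changes offset each other in the sum, with 3 genes higher and 3 lower. *Tbx18*, *Tcf21* and *Bmp4* were lower, at 66.9%, 82.2% and 85.6% of the control. *Gli1*, *Tbx2* and *Tbx3* were higher, at 121.3%, 120.3% and 109.4%. CPM sums also weight each gene by its length, so their overlap does not show an unchanged mesenchyme. The epithelial sum was 988 to 1266 in the controls and 759.5 to 799 with LiCl, with 5 of 6 genes lower and *Epcam* higher. In such bulk samples, fewer cells of a type and less RNA per cell cannot be told apart, and the part of the epithelial change in the antagonist results was not tested. Skeletal muscle markers, with 6 of 6 genes called higher, summed to 29.9, 4.80 and 61.4 CPM in LiCl replicates 1 to 3 and to between 1.91 and 4.25 CPM in the controls. Without LiCl replicates 1 and 3, where the lone LiCl sample is assumed to vary like the controls, *Sfrp2*, *Dkk2* and *Dkk1* were still lower, at log2 fold changes of -0.72, -0.76 and -0.73 (edgeR adjusted p = 0.000297, 0.000604 and 0.00333). *Dkk3*, at -0.27 (edgeR adjusted p = 0.0702), no longer passed, nor did *Frzb*, with the values given above.

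The remaining marker lists gave sums of 78.1 to 85.0 CPM in the controls and 53.0 to 72.6 CPM with LiCl for nephron progenitors and renal stroma, with 2 of 5 tested genes lower. Endothelial markers summed to 414.6 to 518.3 and 361.4 to 450.4 CPM, with 1 of 5 lower, and macrophage markers to 49.2 to 83.0 and 46.9 to 63.9 CPM, with 1 of 5 higher and 2 lower. Markers of neural crest, glia and neurons summed to 90.7 to 105.1 and 79.0 to 105.1 CPM, with 0 of 5 past an adjusted p of 0.05 in edgeR and 2 at an unadjusted p under 0.05. Erythroid markers summed to 454.3 to 665.5 and 595.4 to 920.4 CPM, with 1 of 5 higher. No marker of any of these lists was at 0 in all samples, and the part of these cells in the antagonist results was not tested.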

How the data were processed

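RNA-Seq was measured in 3 LiCl and 3 control samples, grouped by their labels. The authors deposited raw counts per gene, without normalization, made with featureCounts on GRCm39. The study's methods name HISAT2 as aligner, whereas the submitters' processing notes list STAR 2.7, fastp 0.23, featureCounts 2.0 and DESeq2 1.40. The annotation release and the strand setting of the counting are not given in the sources used here. The authors also deposited FPKM per sample. Counts divided by DESeq2 size factors and by these FPKM gave the same length in all 6 samples, within 0.1%, for 100% of 14308 genes with more than 50 counts on average, so both files hold the same measurement.

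Symbols came from GENCODE vM21 (GRCm38), which held 52073 of 56748 identifiers. Identifiers without a symbol held 0.191% of the counts. The main test was the quasi-likelihood test of edgeR 4.0.16 (R 4.3.3). Low genes were removed with filterByExpr, libraries were scaled by TMM, and p-values were adjusted after Benjamini-Hochberg over 18188 genes. The F statistic and the fold change gave each standard error. TMM factors lay between 0.98 and 1.03. CPM divide counts by the normalized library size. Calls used an adjusted p under 0.05, with and without a log2 fold change beyond 1 or -1.

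The members and the lists were chosen with earlier results of these data known. All 10 members are described. Genes of the 7 pathway lists are named when called at both thresholds, together with *Kremen1*, *Kremen2*, *Lrp5*, *Lrp6* and *Axin2*. Marker lists are given as sums and counts. Of their genes, *Epcam* and the mesenchymal markers past an adjusted p of 0.05 are named, chosen after their values were seen. The mesenchymal markers *Foxf1* and *Ptch1* did not pass and are not described. Promoter windows came from RefSeq (GRCm38.p6). Where GENCODE places the start elsewhere, at most 30 bases were printed. No protein sequences were used here. Within each group, no sample was a copy of another (chi-square of 5.93 to 14.5 per degree of freedom). Alternatives used DESeq2 1.42.0 and limma 3.58.1. Scripts were tested on simulated data.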

Additional observations from a re-analysis of the deposited data

How the results depend on the processing

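No antagonist called lower at an adjusted p under 0.05 changed direction in any alternative. The number of antagonists lower at that threshold, 5, was 5 with RLE size factors, library size only, DESeq2 and no filter on low counts, and 4 with limma on log2(FPKM + 1) or log2(FPKM + 0.1) at a mean FPKM of at least 0.5. Leaving out single replicates gave 4 to 5. Without LiCl replicates 1 and 3, with a lone LiCl sample left, the log2 fold changes of *Dkk3* and *Frzb* were -0.27 and -0.51. The number fell to 3 when limma was run on unfiltered log2(FPKM + 1). The cause of the changes in either alternative was not tested. *Dkk1*, *Dkk2* and *Sfrp2* were lower in each of the 15 alternatives, at log2 fold changes of -0.87 to -0.67, -0.82 to -0.73 and -0.75 to -0.69. *Dkk3* lost its call in 8 and *Frzb* in 2 of the 15, and the adjusted p reached 0.112 and 0.172. *Sfrp5*, not past the test in any alternative, changed sign without LiCl replicate 1, and its log2 fold change lay between -0.71 and 0.10 when single replicates were left out. The counts of antagonists past the fold change threshold stayed at 0 in every alternative.

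The samples share only a number, and no pairing was found: across genes, a control's deviation from its group mean correlated with that of its LiCl namesake at -0.01, -0.18 and 0.13. Of the controls, replicate 3 alone correlated best with the LiCl sample of its own number. With the replicate number as a block, 5 antagonists were again lower and 0 higher. At this depth, *Sfrp4*, *Sfrp5* and *Dkk4* limit what can be said of their changes.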
